A study of Rattus norvegicus with 6 samples.

Results

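The genes described here encode ion channels and ligand-gated receptors, and were taken from the count files by their symbols. They comprise the potassium channel genes (Kcn), with the Kcnmb and Kcnip accessory subunits, and the sodium (Scn) and calcium (Cacna, Cacnb, Cacng) channel genes. The HCN, TRP and ClC channels and the P2X, AMPA, kainate, NMDA and GABA-A receptors complete the list. The symbols gave 200 of the 17327 genes in the files. One of them, Trpc4ap, encodes a protein that binds a TRP channel and is not itself a channel. RNA was sequenced from primary Schwann cells, the glia of peripheral nerves, purified from sciatic nerves of adult Wistar rats. Cells of both groups had been grown with forskolin, which raises cAMP, and with a neuregulin. The sample labels name this as glial growth factor, while the methods of the study name NRG1β1, the ligand of the treatment itself. They were then starved for 18 h in medium with 2% serum and 10 μM forskolin. The 3 NRG1 samples received 10 nM soluble recombinant NRG1β1 (NRG1) for 6 h, and the 3 mock samples received its carrier, buffered saline with albumin, for the same time. Each of 3 independent cultures gave 1 mock and 1 NRG1 sample with the same replicate number. The cells had no axons, and nerve tissue was not measured.

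Ion channels let ions cross membranes, and their subunits divide into pore-forming proteins and auxiliary subunits that alter gating or transport to the surface. Voltage-gated channels open when the membrane potential changes, and ligand-gated receptors open when a transmitter such as glutamate, GABA or ATP binds. Schwann cells do not fire action potentials, but their potassium channels have long been linked to proliferation, and ATP released from axons and damaged cells acts on their P2X receptors. NRG1 signals through the ErbB receptor tyrosine kinases and is not itself a channel ligand.

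Counts on genes ranged from 6821590 to 15475018 per library, and levels are given as CPM, the counts per 1000000 of the TMM-normalised library size. A floor of 3 counts corresponded to 0.19 to 0.44 CPM. The Schwann cell markers Sox10 and Erbb3 were counted in every sample, at 353 to 1258 CPM, while Gap43 stayed at or below 0.32 CPM. The Schwann cell lineage list was lower in replicate 1, at 6701 CPM in its mock and 5481 CPM in its NRG1 sample. In the other 4 samples it summed to between 13623 and 17404 CPM. Replicate 1 stood apart, and its samples held more counts of fibroblast and pericyte markers. The fibroblast list summed to 53433 and 57725 CPM in the mock and NRG1 samples of replicate 1 and to between 13696 and 22338 CPM in the other 4. The pericyte and smooth muscle list summed to 4902 and 4924 CPM in replicate 1 and to between 316 and 629 CPM elsewhere. All 9 fibroblast and all 7 pericyte and smooth muscle markers had counts, but Dcn, Lum, Thy1 and Rgs5 were at 0 in replicates 2 and 3. Dpt had only 1 count, in mock sample 1, and Col1a2 only 2, in NRG1 sample 2. Des was at most 0.59 CPM, and Fbln1 lay between 3.03 and 7.88 CPM in all samples. Of the 11 neuronal markers, Rbfox3 was at 0 everywhere, Snap25, Syt1, Elavl4, Stmn2, Nefh and Prph were at most 1.07 CPM, and Nefl, Nefm, Uchl1 and Tubb3 were higher. The sum of the neuronal list was 2503 to 7370 CPM in mock and 2996 to 8441 CPM in NRG1 samples. Macrophage markers summed to at most 4.71 CPM with Ptprc, Adgre1, C1qa and C1qb at 0, and endothelial markers to at most 15.2 CPM with Pecam1, Cdh5, Cldn5 and Emcn at 0. The perineurial list summed to 108 to 197 CPM, nearly all of it from Slc2a1 and Itgb4. In this list Lypd2 was at 0, Cldn1 at most 0.58 CPM and Krt19 at most 0.16 CPM. The skeletal muscle list summed to 5.39 to 22.8 CPM.

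Of the 200 channel and receptor genes, 52 had no count in any sample, and 144, including those 52, did not pass the low-count filter. Of the 144, 37 had over 15 counts in all, up to 288, but reached the minimum in too few samples. The remaining 56 were tested. In bulk RNA, fewer cells of a type and less RNA per cell cannot be told apart, and this holds for every change below. With edgeR's quasi-likelihood test, the replicate number as a block and Benjamini-Hochberg adjustment over all 9740 tested genes, 15 of the 56 fell and 7 rose after NRG1 (adjusted p up to 0.05). Among all tested genes 11.7% fell and 11.5% rose by this measure, against 26.8% and 12.5% of the tested channel and receptor genes. Of the 56 genes, 26 were lower and 9 higher in NRG1 than in mock in each of the 3 pairs, against 30% lower and 25.9% higher over all tested genes. The study used a stricter rule, in which the adjusted p is 0.01 or less and the log2 fold change exceeds 1 in size. By it, 7 genes were down-regulated (among them Clcn4, Gria2, Grik2, Kcnk5, P2rx7 and Trpv1) and only Cacna1i was up-regulated. Over all tested genes, 1.91% were down-regulated and 1.56% up-regulated by this rule, 3.47% either way. The study applied the rule to a paired DESeq2 fit, and in DESeq2 with the replicate block Trpv1 no longer met it and 6 genes were down-regulated. The 3 NRG1 samples lay below the 3 mock samples without overlap for 4 of the 56 genes (among them Clcn4, Grik2 and Trpc1) and above them for 1 (Cacna1i). Among all tested genes 9.94% lay below, 10.2% above and 20.1% either way, so separated groups were no more frequent among the channel genes. The median log2 fold change was -0.23 over the 56 genes and -0.03 over all tested genes. No gene's values here are independent evidence of direction, since the study tested the same samples. P2rx7, Grik2 and Kcnk5 were among the genes it singled out.

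The calls depended on the pairing of samples by culture. In the fit with no replicate block, edgeR passed 0 of all 9740 genes (smallest adjusted p = 0.14), the channel genes included, of which 8 were at an unadjusted p under 0.05. DESeq2 with no replicate block passed 388 of 9617 genes (4.03%), 3 of them channel genes. DESeq2 with the replicate block passed 16 of the 56 and 16.9% of all genes. Without replicate 3, 2 genes rose and 11 fell, and without replicate 2, 5 rose and 10 fell, while without replicate 1, 8 rose and 14 fell. These fits passed 12.1%, 19.7% and 18.9% of all genes they tested. Cell type markers moved as well. Of 12 tested Schwann lineage markers, 4 fell, among them S100b, Egr2 and Cdh19, and none rose. Over all tested genes 11.7% fell and 11.5% rose. Sox10 had a log2 fold change of 0.11 (adjusted p = 0.58). Of the other lists, Itgb4 (perineurial list, log2 fold change -1.44) and Tek (endothelial list, -0.62) fell, and Slc2a1 (perineurial list, 0.59) rose. Col3a1 (-0.98) was the only 1 of 4 tested fibroblast markers that fell. Tagln (-0.47) was the only 1 of 5 tested pericyte and smooth muscle markers that fell. In pairs 1, 2 and 3 the log2 ratios were 0.05, -1.59 and -1.38 for Col3a1 and -0.02, -0.82 and -0.57 for Tagln. The summed pericyte and smooth muscle list went from 629 to 355 CPM in pair 2 and from 448 to 316 CPM in pair 3. The part of these markers in the channel changes was not tested.

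**Figure D1:**
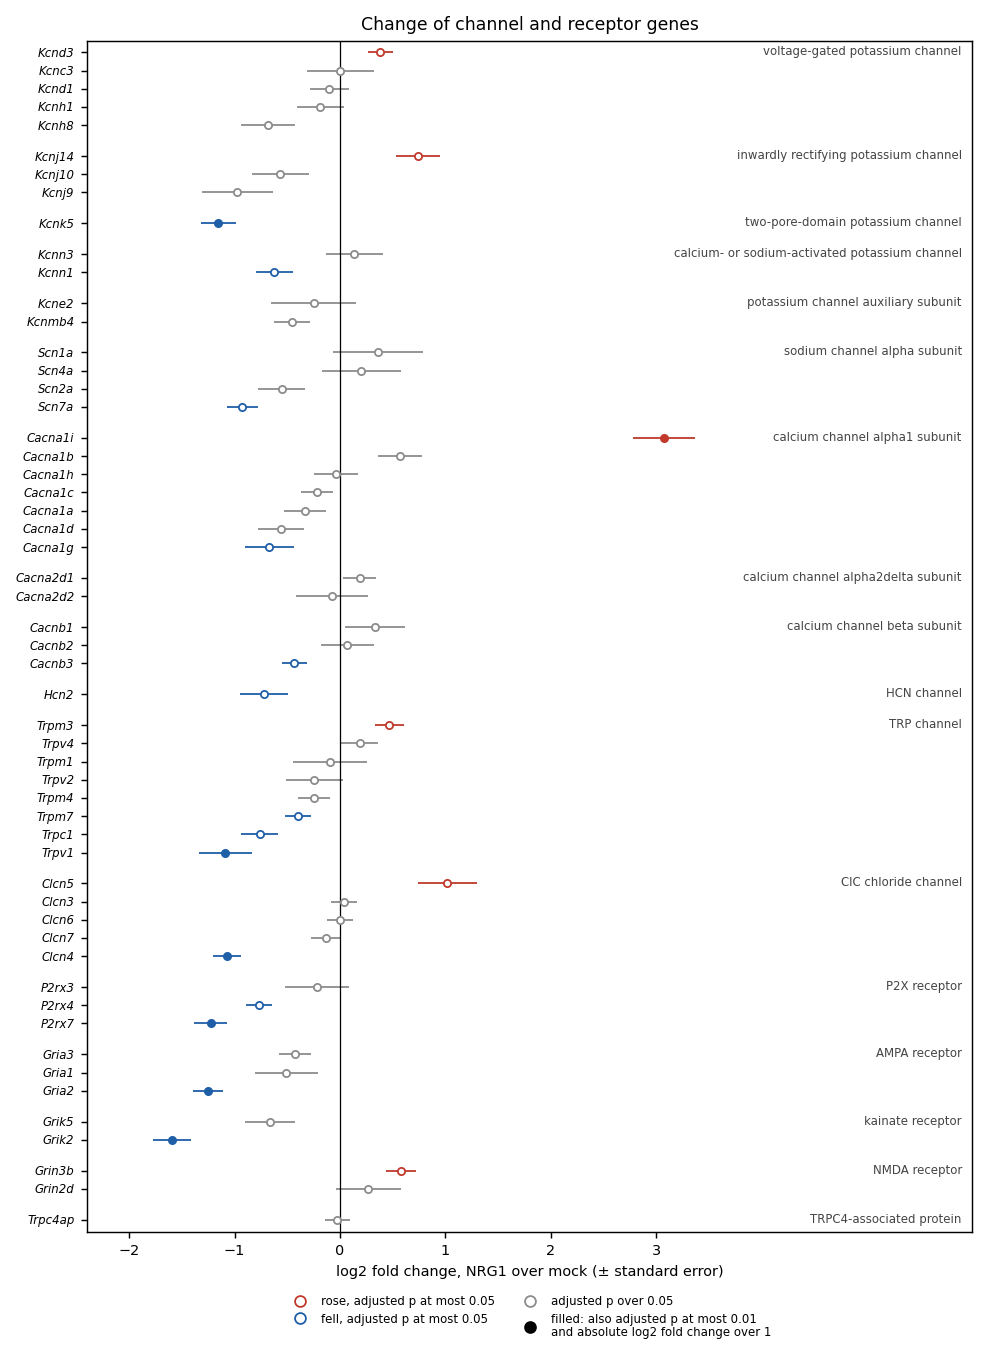
Log2 fold change of NRG1 over mock, with its standard error, for tested genes reported here, grouped by family. Blue marks genes that fell and red those that rose at an adjusted p of at most 0.05, with filled points for those past the stricter rule, and Cacna1i lies furthest to the right at 3.08.

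**Figure D2:**
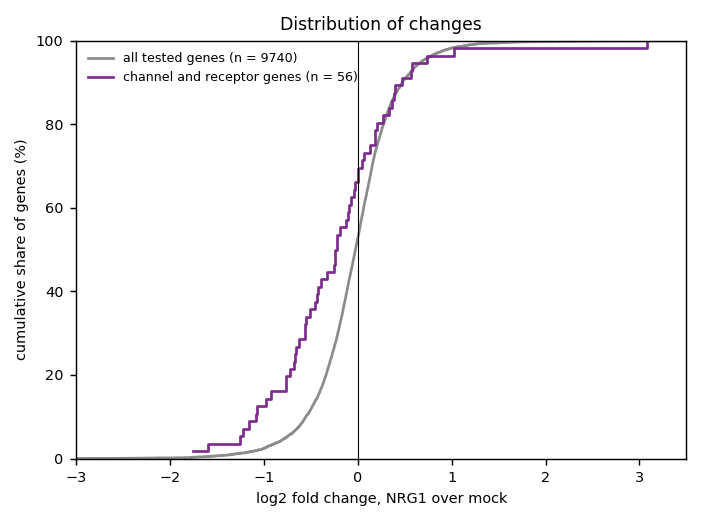
Cumulative share of genes (%) against the log2 fold change of NRG1 over mock for all 9740 tested genes (grey) and the 56 tested channel and receptor genes (purple). The purple line lies above the grey one on the left, with 67.9% of the 56 genes and 52.8% of all tested genes below 0.

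Sequence upstream of the start site is shown for 3 of the down-regulated genes with a promoter entry, 1 each from the glutamate receptors, P2X receptors and potassium channels. Promoters came from RefSeq on the GRCr8 assembly, whose coordinates differ from those of the rn5 assembly used for counting. Of the 200 symbols, 128 matched a single entry, among them 10 genes that fell and 2 that rose. Cacna1g, Cacna1i, Clcn5, Gria2, Grin3b, Kcnn1, Trpc1 and Trpm3 were among those with no single entry. Each line gives the 250 bases before the annotated start, 5′ to 3′ on the strand of the gene, in lower case. Capitals mark exact matches, on either strand, to a SOX site (ACAAAG) or a GC box (GGGCGG).
Grik2, chr20:54415284-54415533, minus strand: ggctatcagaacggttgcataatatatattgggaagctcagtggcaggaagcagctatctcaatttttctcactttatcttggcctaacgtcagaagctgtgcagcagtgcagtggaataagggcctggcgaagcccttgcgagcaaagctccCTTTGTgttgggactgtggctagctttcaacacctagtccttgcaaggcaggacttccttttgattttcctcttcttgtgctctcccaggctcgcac
P2rx7, chr12:39594923-39595172, minus strand: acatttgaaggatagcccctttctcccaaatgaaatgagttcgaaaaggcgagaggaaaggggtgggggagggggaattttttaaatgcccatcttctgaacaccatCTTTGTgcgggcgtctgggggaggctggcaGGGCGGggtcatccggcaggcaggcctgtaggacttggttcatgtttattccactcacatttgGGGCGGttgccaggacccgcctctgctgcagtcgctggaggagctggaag
Kcnk5, chr15:4171375-4171624, plus strand: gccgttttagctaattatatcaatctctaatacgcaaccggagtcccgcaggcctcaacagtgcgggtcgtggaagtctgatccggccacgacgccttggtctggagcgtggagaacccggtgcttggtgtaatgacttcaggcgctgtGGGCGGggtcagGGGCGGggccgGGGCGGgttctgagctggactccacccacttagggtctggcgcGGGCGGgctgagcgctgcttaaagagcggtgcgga

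Grik2 and P2rx7 each held 1 SOX site, beginning 97 and 143 bases before the start. P2rx7 also held 2 GC boxes, and Kcnk5 held 4, beginning 101, 89, 78 and 35 bases before the start, and no SOX site. Over the matched genes that fell, 3 of 10 held the SOX letters (Grik2, P2rx7 and Trpv1) and 6 of 10 a GC box. Among all 34 tested channel and receptor genes with a promoter entry, 7 (20.6%) held the SOX letters and 20 (58.8%) a GC box. The shares were 11.5% and 61.5% of the 7163 tested genes with a promoter entry and 15.8% and 33.6% of all 24206 promoters. The cAMP response element (TGACGTCA) and the AP-1 site (TGANTCA) were in none of the 34 tested channel and receptor promoters, and were in 3.28% and 4.09% of the promoters of all tested genes. The E-box CACGTG was in 2 of the 10, Clcn4 and Trpm7, in 4 of the 34 (11.8%) and in 8.6% of the promoters of tested genes. Both strands were searched, and a match is a description of the letters and not of binding.

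Among potassium channels, the tandem-pore channel Kcnk5, which carries an acid-sensitive background current, was the only down-regulated gene. It was counted at 37.9, 89.2 and 81.6 CPM in mock samples 1, 2 and 3 and at 10.7, 45.3 and 44.9 CPM in NRG1 samples 1, 2 and 3. It fell in each culture, but the groups overlap because mock sample 1 lay below NRG1 samples 2 and 3. The paired fit gave a log2 fold change of -1.16 (SE, the standard error, 0.16, adjusted p = 0.00023), and -0.92 without replicate 1, where it no longer met the fold threshold. Kcnk5 was the only 1 of 13 tandem-pore genes with enough counts to be tested.

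Kcnn1, a small-conductance channel opened by calcium, fell from 22.4 ± 10.9 CPM in mock to 14.2 ± 6.13 CPM in NRG1 samples (SD, n = 3), with a fitted log2 change of -0.62 (SE 0.17, adjusted p = 0.019). Without replicate 2 it was -0.39 and did not pass (adjusted p = 0.13), nor did it in DESeq2 with the replicate block (adjusted p = 0.053). Its relative Kcnn3 had a log2 fold change of 0.13 (adjusted p = 0.76). Kcnd3, which forms an A-type voltage-gated channel, was the most counted voltage-gated potassium channel and rose from 36.2, 57.0 and 40.8 CPM to 48.4, 71.4 and 54.2 CPM. The rise was even across the cultures and modest, at a log2 fold change of 0.38 (SE 0.12, adjusted p = 0.035), and did not pass without replicate 1 (adjusted p = 0.16) or replicate 3 (adjusted p = 0.17), or in DESeq2 with the block (adjusted p = 0.076). The inward rectifier Kcnj14 rose from 4.01, 6.66 and 6.22 CPM to 5.87, 11.7 and 10.8 CPM (log2 fold change 0.74, SE 0.21, adjusted p = 0.019), and did not pass without replicate 2 (adjusted p = 0.051) or replicate 3 (adjusted p = 0.15), or in blocked DESeq2 (adjusted p = 0.084). Kcnj10, an inward rectifier best known from glia of the brain, had a log2 fold change of -0.57 (adjusted p = 0.14), and Kcnj9 one of -0.97 (adjusted p = 0.051). Of 39 voltage-gated potassium channel genes, 34 were not tested and 16 had no count, among them Kcna1 and Kcna2. The auxiliary subunit Kcnmb4, which modulates large-conductance calcium-activated channels, was at 16.7 ± 9.33 CPM in mock and 12.3 ± 7.32 CPM in NRG1 samples (SD, n = 3, adjusted p = 0.063).

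Some potassium channel genes that the filter removed differed between the groups, and they are named here after their values were seen. Kcnt1, a sodium-activated potassium channel, had 0, 0 and 2 counts in mock samples 1, 2 and 3 and 6, 20 and 28 counts in the NRG1 samples. Every NRG1 sample was above every mock sample, and the summed rate was 22.8 times that of mock (95% interval 6.01 to 193.1, counting error only). Kcnn4, the intermediate-conductance calcium-activated channel, had 0, 1 and 9 counts in mock and 5, 13 and 28 counts in NRG1 samples, a ratio of 3.88 (95% interval 1.93 to 8.63, counting error only). In the fit without the low-count filter the adjusted p was 2.6e-05 for Kcnt1 and 0.018 for Kcnn4. The kainate subunit Grik4 and the sodium channel Scn9a were also removed by the filter. Their ratios were 3.94 (95% interval 1.60 to 11.64) and 0.11 (95% interval 0.0125 to 0.48, counting error only). Neither passed in the fit without the filter (adjusted p = 0.13 and 0.056).

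Sodium channel transcripts were led by Scn7a, an atypical member of the voltage-gated family that responds to extracellular sodium rather than to voltage. It held 23.8% to 41.9% of all counts on the 200 genes. Scn7a was counted at 864, 1719 and 1450 CPM in mock samples 1, 2 and 3 and at 493, 692 and 917 CPM in NRG1 samples 1, 2 and 3. It fell in each culture, and only mock sample 1 came below the highest NRG1 sample. On the log2 scale the change was -0.93 (SE 0.15, adjusted p = 0.00052), just short of the fold threshold. With Scn7a left out, the counts on the other genes summed to 1965, 2384 and 2075 CPM in mock and 1575, 1668 and 1821 CPM in NRG1 samples, lower in 3 of 3 pairs. This sum includes Trpc4ap, which is not a channel. It also includes Clcn4, at 308, 485 and 340 CPM in mock and 123, 223 and 199 CPM in NRG1 samples, so it does not describe each gene. The neuronal alpha subunits Scn2a and Scn1a had adjusted p-values of 0.09 and 0.58, and Scn10a, typical of pain-sensing neurons, had no count.

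The largest change among the 56 tested genes was that of Cacna1i, a pore-forming subunit of T-type, low-voltage-activated calcium channels. It had 5, 6 and 16 counts in mock samples 1, 2 and 3 and 44, 89 and 140 counts in NRG1 samples 1, 2 and 3. In CPM these were 0.67, 0.89 and 1.26 against 5.87, 10.0 and 9.04, so every NRG1 sample was above every mock sample. Its fitted change was 3.08 on the log2 scale, an 8.43-fold rise (SE 0.29, adjusted p = 1.1e-05), and lay between 2.92 and 3.33 when each replicate was left out. Cacna1i was the only channel gene still past the threshold of 1 when that threshold was placed inside the test. Since only 1 mock sample reached 10 counts, the gene entered the test through its NRG1 samples, and its fold depends on few mock counts.

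The other T-type subunits did not follow it. Cacna1g was at 40.1, 4.74 and 5.44 CPM in mock and 35.2, 1.69 and 2.65 CPM in NRG1 samples. Both samples of replicate 1 were far above the rest, and the fall was visible mainly in replicates 2 and 3. The paired fit gave a log2 fold change of -0.67 (SE 0.23, adjusted p = 0.049), against -1.20 without replicate 1. It did not pass without replicate 2 (adjusted p = 0.13) or replicate 3 (adjusted p = 0.27), or in blocked DESeq2 (adjusted p = 0.059). Cacna1h had a log2 fold change of -0.04 (SE 0.21, adjusted p = 0.91). Differences between these genes were not tested. Of the high-voltage-activated subunits, Cacna1b was at 0.57 (adjusted p = 0.066), Cacna1d at -0.56 (adjusted p = 0.077) and Cacna1a at -0.33 (adjusted p = 0.24) on the log2 scale. Cacna1c, an L-type subunit, was at -0.22 (adjusted p = 0.32). It had the highest mean CPM of the alpha subunits through replicate 1 alone, with 91.3 and 80.1 CPM there and 4.71 to 6.07 CPM in the other 4 samples.

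Among auxiliary calcium channel subunits, Cacnb3, a cytoplasmic subunit that helps bring the pore to the membrane, fell from 80.8 ± 14.8 CPM to 60.2 ± 13.9 CPM (SD, n = 3). The log2 fold change of -0.43 (SE 0.12, adjusted p = 0.016) did not pass without replicate 1 (adjusted p = 0.056) or replicate 3 (adjusted p = 0.11). Cacna2d1, an extracellular auxiliary subunit and the target of gabapentin, had 29.7 ± 23.3 CPM in mock and 31.2 ± 19.3 CPM in NRG1 samples (SD, n = 3, log2 fold change 0.19, adjusted p = 0.43). None of the 8 gamma subunit genes was tested, and 6 of them had no count.

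HCN channels open on hyperpolarisation and bind cAMP. Hcn2 was at 8.15, 5.92 and 7.25 CPM in mock and 6.00, 3.15 and 4.07 CPM in NRG1 samples. NRG1 sample 1 reached slightly above mock sample 2, so the groups overlap. Its fitted change was -0.72 on the log2 scale (SE 0.23, adjusted p = 0.034), and it did not pass without replicate 2 (adjusted p = 0.081) or replicate 3 (adjusted p = 0.26), or in blocked DESeq2 (adjusted p = 0.15).

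Of 20 TRP channel genes, 8 were tested, 3 fell and 1 rose, where 11.7% of all tested genes fell and 11.5% rose. Trpv1, the capsaicin- and heat-activated channel, had 28, 67 and 102 counts in mock and 13, 30 and 75 counts in NRG1 samples. At 3.74, 9.91 and 8.04 CPM against 1.73, 3.37 and 4.84 CPM it was lower in each culture, with overlapping groups. The paired fit gave a log2 fold change of -1.09 (SE 0.25, adjusted p = 0.0068), and -0.83 without replicate 2 (adjusted p = 0.052). The adjusted p was 0.015 without replicate 3 and 0.026 in blocked DESeq2, so that Trpv1 passed but missed the stricter rule. Trpc1, a subunit of receptor-operated cation channels, had very even mock values of 19.5, 19.8 and 18.9 CPM and lower NRG1 values of 8.80, 13.4 and 12.2 CPM. The groups did not overlap, and the log2 fold change was -0.76 (SE 0.17, adjusted p = 0.0058). Trpm7, a magnesium- and calcium-permeable channel fused to a kinase, fell from 206.4 ± 39.8 to 155.2 ± 18.4 CPM (SD, n = 3), with a fitted log2 change of -0.40 (SE 0.12, adjusted p = 0.028). It did not pass when any replicate was left out, with adjusted p-values of 0.13, 0.077 and 0.079 without replicates 1, 2 and 3. Trpm3, a channel opened by heat and by pregnenolone sulphate, rose from 54.6, 43.5 and 59.6 CPM to 58.0, 65.0 and 97.4 CPM. The rise was slight in replicate 1 and clearer in replicates 2 and 3 (log2 fold change 0.47, SE 0.14, adjusted p = 0.025), and did not pass without replicate 2 (adjusted p = 0.055) or replicate 3 (adjusted p = 0.24). Trpv4, Trpm1, Trpv2 and Trpm4 had adjusted p-values between 0.27 and 0.88. Trpc4ap, the channel-associated protein, was at 190.5 ± 15.7 and 186.6 ± 0.86 CPM (SD, n = 3).

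The ClC genes encode chloride channels and chloride/proton exchangers, and Clcn3 to Clcn7 act mainly in endosomes and lysosomes. Clcn4 was counted at 308, 485 and 340 CPM in mock samples 1, 2 and 3 and at 123, 223 and 199 CPM in NRG1 samples 1, 2 and 3. All NRG1 samples lay below all mock samples. On the log2 scale the change was -1.07 (SE 0.13, adjusted p = 8.2e-05), and -0.94 without replicate 1, under the fold threshold. Its close relative Clcn5 rose from 4.81, 3.26 and 2.84 CPM to 7.73, 4.05 and 9.68 CPM (log2 fold change 1.02, SE 0.28, adjusted p = 0.019). NRG1 sample 2 was below mock sample 1, and without replicate 3 the value was 0.54 with an adjusted p of 0.37. Clcn5 did not pass in blocked DESeq2 (adjusted p = 0.071). Clcn3 and Clcn7 had log2 fold changes of 0.04 and -0.13 and, like Clcn6, did not pass.

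P2X receptors are cation channels opened by extracellular ATP. P2rx7, which needs high ATP and is known from cell death and inflammation, had 31.8, 104.3 and 71.5 CPM in mock samples 1, 2 and 3 and 11.5, 36.3 and 41.5 CPM in NRG1 samples. It fell in each culture, and mock sample 1 was below NRG1 samples 2 and 3. Its fitted change was -1.23 on the log2 scale (SE 0.16, adjusted p = 0.0001). P2rx4, a receptor of higher ATP affinity found on the cell surface and in lysosomes, was at 61.1, 103.3 and 110.8 CPM in mock and 41.1, 55.9 and 62.7 CPM in NRG1 samples. Only the mock sample of replicate 1 fell within the NRG1 range, and the log2 fold change was -0.77 (SE 0.12, adjusted p = 0.00056). Both genes passed with each replicate left out. P2rx3, a receptor of sensory neurons, had 16, 23 and 45 counts in mock and 10, 21 and 62 counts in NRG1 samples (log2 fold change -0.22, adjusted p = 0.64). The other 4 P2X genes had at most 4 counts over all samples.

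**Figure D3:**
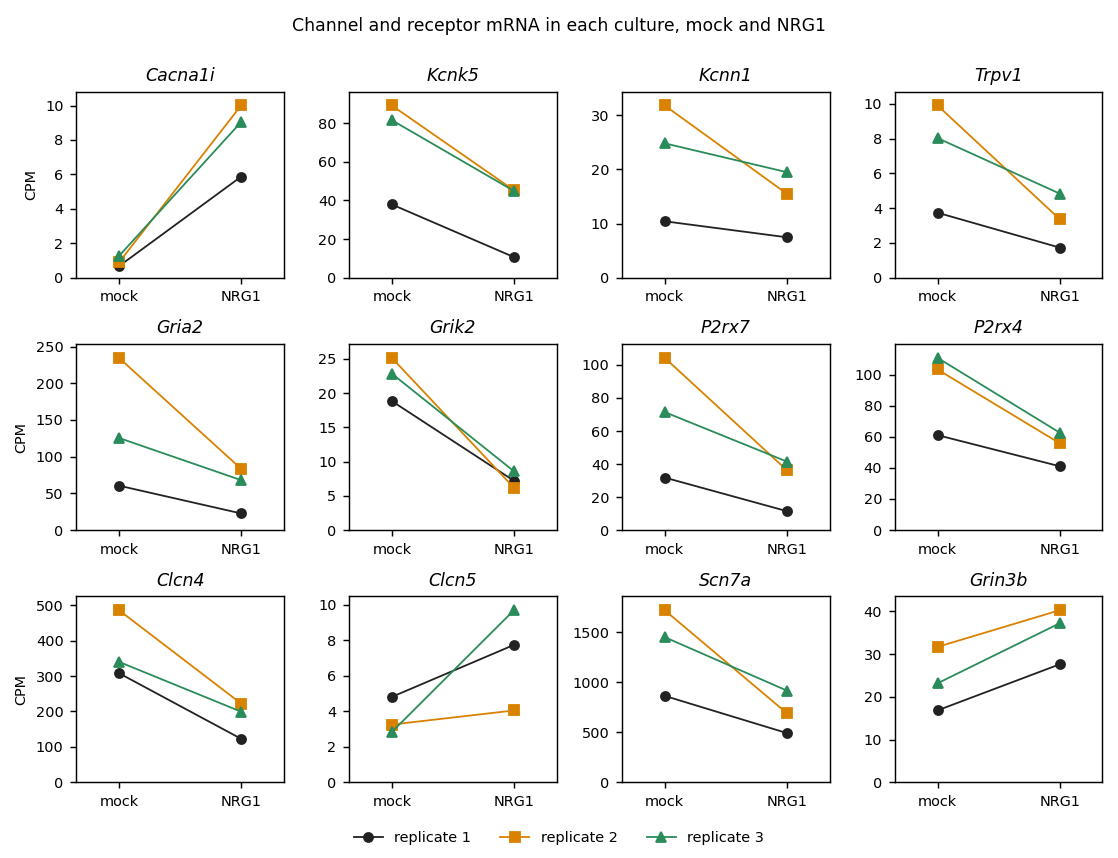
CPM (linear axis from 0) of 12 named genes in mock and NRG1 samples, with lines joining the samples of each replicate. Cacna1i, Clcn5 and Grin3b are higher in NRG1 in all 3 replicates and the other genes are lower, while replicate 1 has the lowest mock value in every panel but that of Clcn5.

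Among ionotropic glutamate receptors, an AMPA and a kainate subunit were down-regulated. Gria2, the AMPA subunit that makes the receptor impermeable to calcium after RNA editing, was at 60.5, 234.7 and 125.5 CPM in mock samples 1, 2 and 3 and at 22.7, 83.5 and 68.0 CPM in NRG1 samples. Mock levels varied widely between cultures and the groups overlap, but the log2 ratio was below 0 in each pair, at -1.41, -1.49 and -0.88. The paired fit gave a log2 fold change of -1.25 (SE 0.14, adjusted p = 3.3e-05). Gria3 and Gria1 were at -0.43 (adjusted p = 0.059) and -0.51 (adjusted p = 0.25), and Gria4 had no count. Grik2, a kainate subunit, was at 18.8, 25.2 and 22.8 CPM in mock and 7.20, 6.18 and 8.59 CPM in NRG1 samples. No NRG1 sample came near the mock range, and the log2 fold change was -1.59 (SE 0.18, adjusted p = 4.6e-05). Its partner subunit Grik5 was at -0.66 (adjusted p = 0.056), while Grik1 and Grik3 had no count. Gria2 and Grik2 passed with each replicate left out.

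Grin3b, a glycine-binding NMDA subunit, rose from 16.8, 31.7 and 23.2 CPM to 27.6, 40.2 and 37.2 CPM. The increase was present in each culture with overlapping groups (log2 fold change 0.58, SE 0.14, adjusted p = 0.0088), and did not pass without replicate 3 (adjusted p = 0.084). Grin1, the subunit that NMDA receptors require, had 1, 4 and 8 counts in mock and 1, 7 and 4 counts in NRG1 samples and was not tested. Grin2d had a log2 fold change of 0.27 (adjusted p = 0.57). None of the 19 GABA-A receptor genes was tested, and 7 of them had no count. Gabrp, a GABA-A subunit named after its values were seen, had 5, 10 and 16 counts in mock and 1, 2 and 8 counts in NRG1 samples, a ratio of 0.30 (95% interval 0.14 to 0.61, counting error only).

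Several genes were almost confined to replicate 1, in mock and NRG1 alike. Of 93 channel and receptor genes with over 15 counts in all, 17 had more than 8 times as many CPM in replicate 1 as in replicates 2 and 3 together, and 15 of these were not tested. Kcnh2, Grik4 and Scn9a were more than 8-fold lower in replicate 1 than in replicates 2 and 3 together, Grik4 and Scn9a with 0 counts there. They were not low in replicate 1 alone. Kcnh2 had 17 and 16 counts in the mock and NRG1 samples of replicate 3 and at most 1 in each other sample. Grik4 was also at 0 in mock sample 2, and Scn9a in NRG1 sample 2. Over all 11040 genes with over 15 counts, 5.48% were over 8-fold higher and 0.81% more than 8-fold lower in replicate 1, against 18.3% and 3.23% of the 93. Kcnj8, a subunit of ATP-sensitive potassium channels known from pericytes and smooth muscle, had 145 and 143 counts in the mock and NRG1 samples of replicate 1 and 0 in the other 4 samples. With 3 counts over those 4 samples as the floor, it was at least 280.8-fold higher in replicate 1. Kcnmb1, the smooth muscle subunit of large-conductance calcium-activated channels, had 29 and 31 counts in replicate 1 and none elsewhere. The same held for Trpc6 with 20 and 12 counts, Kcnt2 with 25 and 16, Gabra2 with 41 and 23, Cacng7 with 8 and 10, and Scn4b with 18 and 3. The stretch-sensitive channel Kcnk2 had 57 and 45 counts in replicate 1 and 2 counts in the other samples. Cacna1c was counted in all samples, but at 15.7 times higher CPM in replicate 1, as was Cacna1g, though less so. These are the samples in which Acta2 was at 1813 and 1845 CPM against at most 4.59 CPM elsewhere, and Rgs5 at 18.7 and 17.1 CPM against 0. Of the fibroblast list, Thy1 was at 1268 and 1143 CPM and Dcn at 611 and 427 CPM in replicate 1, against 0 elsewhere. Des, of the pericyte and smooth muscle list, and Fbln1, of the fibroblast list, were not confined to replicate 1. Whether other cell types account for the channel gene counts in replicate 1 was not tested. Comparisons of replicates rest on a single culture and were given no test.

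**Figure D4:**
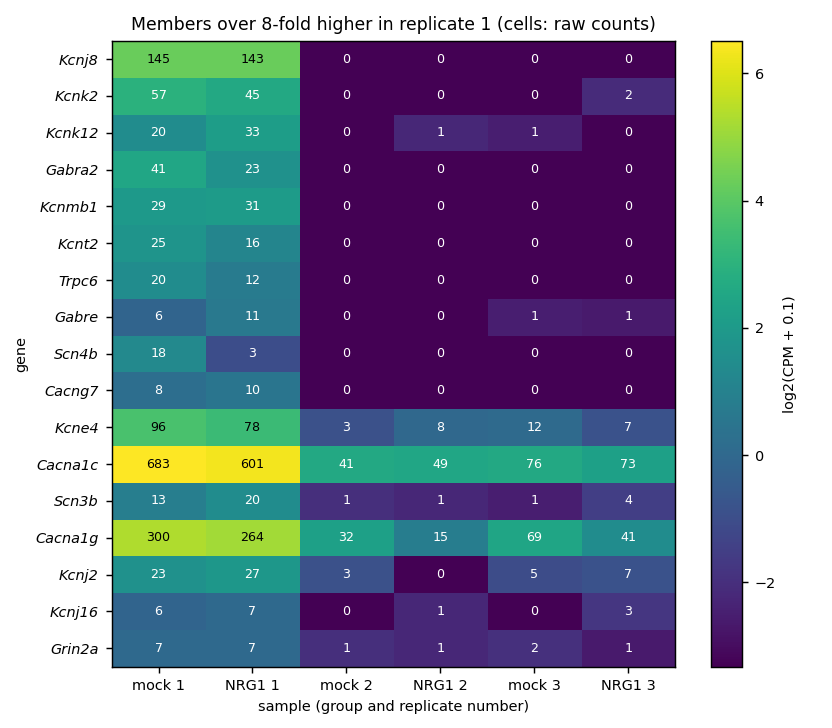
Levels, as log2(CPM + 0.1) in colour, and raw counts, as printed numbers, of the 17 genes over 8-fold higher in replicate 1, by sample. Both samples of replicate 1 hold most of the counts, and 7 of the genes have 0 counts in all 4 other samples.

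A separate list held 128 channel genes that the symbol pattern leaves out, of which 109 were in the files and 44 were tested. Of these, 4 rose and 3 fell, and none met the stricter rule, where 11.5% of all tested genes rose, 11.7% fell and 3.47% met it. The mechanically activated channel Piezo1 rose from 228, 298 and 272 CPM to 448, 441 and 526 CPM with no overlap (log2 fold change 0.83, SE 0.13, adjusted p = 0.00045). The chloride channel relative Ano4 also rose (log2 fold change 0.79, adjusted p = 0.0012). Stim1, the calcium sensor of the endoplasmic reticulum that opens store-operated channels, fell from 72.7, 88.3 and 81.1 CPM to 50.1, 37.8 and 41.1 CPM (log2 fold change -0.92, adjusted p = 0.00042). Ttyh1 fell as well (log2 fold change -0.61, adjusted p = 0.0057), but not without replicate 1 (adjusted p = 0.069). By kind, 3 of 10 tested acid-sensing, mechanosensitive and volume-regulated channels rose and 2 fell. Among 18 intracellular and store-operated calcium channel genes, Stim1 alone fell. Of 5 chloride channels outside the ClC family, Ano4 alone rose. None of the tested nicotinic, glycine and serotonin-gated receptors (1), other potassium and cation channel subunits (5), glutamate receptor relatives and auxiliary subunits (4) or pannexins (1, Panx1) passed.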

How the data were processed

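The deposited files hold raw read counts per RefSeq gene symbol. According to the submitters' processing notes and the methods, the authors mapped poly(A) reads to rn5 with TopHat 2.0.10 and counted them with htseq. Reads outside genes, ambiguous or multiply aligned (50.1% to 53.0% per file) were left out of the deposited counts per gene and of library sizes here. The strand setting is not given in the sources used here, so overlapping antisense genes, and near-identical paralogs, may be miscounted. A gene at 0 may lack a usable gene model.

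Counts were filtered with filterByExpr (minimum count 10), normalised with TMM and tested with edgeR 4.0.16 in R 4.3.3 (quasi-likelihood, replicate number as a block), adjusting p-values by Benjamini-Hochberg over 9740 genes. CPM use effective library sizes, and log2 ratios within pairs used a prior count of 2. "Rose" and "fell" mean an adjusted p of at most 0.05. No gene lengths were available, so levels are not compared between genes, and "most counted" refers to CPM. Intervals and floors cover counting error only. The study itself used paired DESeq2. Fixed alternatives were no block, DESeq2 1.42.0 with the block, RLE, other filters, robust estimation, the fold threshold inside the test and leaving out each replicate. DESeq2 with no replicate block was added after seeing the data.

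The numbers pair the samples: each culture gave both, and deviations of same-numbered samples correlated across genes with r of 0.91, 0.67 and 0.81. Between differently numbered samples r ran from -0.80 to 0.51. No pair of libraries agreed within sampling noise (lowest chi-square over its degrees of freedom, 22.4). Named genes are members passing the test, the most counted member of each family and those the paper names; other members were named to complete a family, after their values were seen. Members and lists were chosen with earlier results of these data known. The scripts were tested on simulated data. Some genes are counted but not reported here by name.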

Additional observations from a re-analysis of the deposited data

How the results depend on the processing

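Of the 22 channel genes that rose or fell, all 22 kept their direction under every alternative in which they were tested. All 22 also passed with RLE normalization, robust estimation and no low-count filter, and 16 passed in DESeq2 with the replicate block, which ended the calls of Cacna1g, Clcn5, Hcn2, Kcnd3, Kcnj14 and Kcnn1. With no replicate block, edgeR gave 0 up-regulated, 0 down-regulated, 0 that rose and 0 that fell. DESeq2 with no replicate block gave 1 down-regulated gene, 1 that rose and 2 that fell. DESeq2 with the replicate block gave 4 that rose. No low-count filter gave 3 up-regulated genes (Cacna1i, Clcn5 and Kcnt1), and at least 10 counts in every sample gave 0, as Cacna1i was then not tested. The fold threshold inside the test gave 0 down-regulated genes. Leaving out each replicate gave from 1 to 3 up-regulated and 5 to 7 down-regulated genes, and from 2 to 8 that rose and 10 to 14 that fell. Cacna1i, Gria2, Grik2, Clcn4, P2rx7, Kcnk5, Scn7a, P2rx4 and Trpc1 were among the genes that passed at 0.05 in each of these 3 fits. Genes of few counts were left out by the filter, and without it 148 of the 200 were tested. Where calls were lost, the cause was not tested. Leaving out a replicate used fewer samples, while edgeR with no block and DESeq2 with the block tested 9740 genes, as the main fit did.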
